A study of Homo sapiens with 6 samples.

Results

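The clustered protocadherins are a family of cell surface cadherins encoded side by side in 3 neighbouring gene clusters, alpha, beta and gamma, on the long arm of human chromosome 5. Members were taken by symbol as the protein-coding PCDHA, PCDHB, PCDHGA and PCDHGB genes together with PCDHAC1, PCDHAC2 and PCDHGC3 to PCDHGC5. This gave 53 of the 30727 genes counted, namely 15 alpha, 16 beta and 22 gamma genes. On GRCh38.p14 the alpha genes spanned chr5:140786140-141012347, the beta genes chr5:141051374-141249365 and the gamma genes chr5:141330514-141512975, all on the plus strand. Expression was measured by sequencing of polyadenylated RNA from PANC-1, an established line from a human carcinoma of the pancreatic duct. There were 3 libraries labelled as siRNA knockdown of SUV420H2 and 3 labelled as control. SUV420H2, now named KMT5C, is a histone H4 methyltransferase of condensed chromatin, and the comparison asks which genes differ between knockdown and control cells. What the control cells received and how long after siRNA treatment they were collected is not stated in the labels. Nor do the labels say that libraries of a group were grown apart, so each p-value reflects the spread among these libraries, which may be technical.

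Clustered protocadherins act as recognition molecules: like pairs bind across the gap between neighbouring cells, and different isoforms join into mixed complexes on one cell. They are best known from neurons, where each cell uses a small set of them and where they serve self-avoidance of processes and neuronal survival. In the alpha and gamma clusters each gene has its own large first exon with its own promoter, spliced to a short set of constant exons that every gene of the cluster uses, while each beta gene is complete in its own exon. The C-type genes at the end of the alpha and gamma clusters are used more evenly from cell to cell than the others. Promoter choice is known to involve the looping factor CTCF, cohesin, DNA methylation and histone methylation.

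The shared exons decide what can be read from a count of the alpha and gamma genes. In GENCODE 29 all 15 alpha genes share the starts of 3 constant exons, of at most 59, 89 and 2721 bases. All 22 gamma genes share the starts of 3 others, of at most 59, 89 and 2035 bases. Transcripts of some members, such as PCDHA4, hold fewer of these bases. The sequences below show the last 30 own bases of 4 members in lower case, joined to the first constant exon in capitals, as read from the GENCODE 29 transcripts of GRCh38. They are shown because the capitals are where the members of a cluster cannot be told apart.
PCDHA12: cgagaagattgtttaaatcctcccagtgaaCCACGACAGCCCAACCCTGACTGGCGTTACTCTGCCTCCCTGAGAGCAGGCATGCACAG
PCDHAC2: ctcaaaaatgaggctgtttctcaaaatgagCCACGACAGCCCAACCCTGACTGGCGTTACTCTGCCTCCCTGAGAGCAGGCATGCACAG
PCDHGB7: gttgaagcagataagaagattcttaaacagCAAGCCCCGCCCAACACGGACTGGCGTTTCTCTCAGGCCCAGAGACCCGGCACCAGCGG
PCDHGC3: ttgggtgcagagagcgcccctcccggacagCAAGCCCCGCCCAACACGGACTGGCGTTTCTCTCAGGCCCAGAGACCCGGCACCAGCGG
The own bases lie on the plus strand at chr5:140877810-140877839 for PCDHA12, chr5:140969302-140969331 for PCDHAC2, chr5:141420245-141420274 for PCDHGB7 and chr5:141478517-141478546 for PCDHGC3. The constant exon in capitals lies at chr5:140978949-140979007 for the alpha genes and at chr5:141494807-141494865 for the gamma genes. The first constant exon was 1 identical sequence in all 15 alpha genes and another in all 22 gamma genes, while the bases before it differ.

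The promoters of the members also carry a shared element with the core CGCT, which is shown here because it is the feature that most members of a cluster have in common upstream of their own exon. RefSeq promoter windows of GRCh38.p14, from 250 bases before to 50 after the gene start, were at hand for 47 of the 53 members. The 3 versions searched were GATGTCGCT, GGTGGCGCT and GNCGCTGT on both strands, and they were chosen from these windows. In the 44-base stretches below the match is in capitals.
PCDHA4: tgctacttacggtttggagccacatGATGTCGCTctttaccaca
PCDHA12: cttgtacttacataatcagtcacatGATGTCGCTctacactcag
PCDHB2: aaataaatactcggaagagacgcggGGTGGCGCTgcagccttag
PCDHB7: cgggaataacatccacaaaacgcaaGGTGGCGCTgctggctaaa
PCDHGA1: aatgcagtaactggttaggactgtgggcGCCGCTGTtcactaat
PCDHGB1: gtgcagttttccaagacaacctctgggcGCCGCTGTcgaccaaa
PCDHGC3: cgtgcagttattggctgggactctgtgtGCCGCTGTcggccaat
These stretches lie on the plus strand at chr5:140806965-140807008, chr5:140875230-140875273, chr5:141094530-141094573, chr5:141172552-141172595, chr5:141330389-141330432, chr5:141350011-141350054 and chr5:141475866-141475909, in the order printed. GATGTCGCT was found in 9 of the 13 alpha genes with a window and in 0.105% of all 35116 promoter windows. GGTGGCGCT was found in 13 of 14 beta genes and in 0.501% of all windows, and neither was found in the other clusters. GNCGCTGT was found in 17 of 20 gamma genes and in 4.35% of all windows. It was also found in 5 alpha genes, all of which hold GATGTCGCT, and in 1 beta gene, PCDHB3, and its letters can overlap those of the other 2 versions. None of the 3 was found in PCDHA9, PCDHA11, PCDHAC1, PCDHAC2, PCDHB1, PCDHGB3, PCDHGB7 and PCDHGA11. A match is a description of these letters and not a measured binding site.

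The targeted gene was lower in every knockdown library than in any control. KMT5C stood at 9.54, 7.22 and 12.6 CPM (reads scaled to library size with TMM factors) in the controls and at 6.03, 6.11 and 5.85 CPM in the knockdown libraries (log2 difference −0.72, SE 0.163, edgeR adjusted p = 0.00227; −0.50 without control replicate 3). Libraries held from 20863594 to 38022772 counted reads, and control replicate 3 stood apart from the other controls (chi-square per degree of freedom 11.3 and 13.6, against 1.55 between those 2 and 1.99 to 2.26 among the knockdown libraries). All 6 markers of the duct carcinoma line passed the filter, while 0 of 8 acinar and islet markers did. Of 17 neuron markers, 8 passed, of which 2 were higher and 5 lower at an edgeR adjusted p of 0.05. Of all genes tested, 33.1% were higher and 34.2% lower by the same test, and the marker list as a group was not tested. The summed level of the neuron markers was 236 to 281 CPM in the controls and 131 to 140 CPM in the knockdown. Most of it came from TUBB3 (mean 187 and 90.7 CPM) and MAP2 (48.5 and 33.8 CPM). INA (2.74 on the log2 scale, SE 0.498) and SNAP25 (0.93, SE 0.322) were the 2 that were higher. INA had 8 reads in all controls and 74 in all knockdown libraries, and SNAP25 had 27 and 69. At that control level INA passed the filter only through the knockdown libraries, where it was high. The controls of SNAP25 alone would not have passed either, with 0.240 CPM in control replicate 1. It thus also entered the fit through the knockdown libraries, where it was higher. GAP43 had 0 reads in all 6 libraries, STMN2 had 4 reads over all libraries together and DCX had 2. In bulk RNA, fewer cells using a gene and less RNA per cell cannot be told apart.

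As deposited, every alpha and gamma gene was higher in the knockdown, and the beta genes were divided. Of the 53 members 47 passed the low-count filter, and edgeR's quasi-likelihood test called 37 higher and 2 lower at an adjusted p of 0.05. Of all 15190 genes tested, 33.1% were called higher and 34.2% lower, or 67.2% in either direction. The 15 alpha genes lay between 0.80 and 0.85 on the log2 scale (median 0.81, adjusted p 1.80e-07 to 1.15e-06), and the 22 gamma genes between 0.13 and 0.16 (median 0.14, adjusted p 0.0183 to 0.0472). The 15 alpha calls held whichever library was left out, but the gamma calls fell to 4 without control replicate 1, to 1 without knockdown replicate 1 or 3, and to 0 without control replicate 2 or knockdown replicate 2. The 10 beta genes tested had a median of −0.015 and ranged from −0.79 to 0.74, and the median over all genes tested was −0.011.

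These 37 calls cannot be read as separate measurements, because the rows of a cluster share a common floor of nearly equal counts in each library. PCDHA1, the first alpha gene, had 453, 364 and 404 reads in the controls, which was also the lowest count of any alpha gene in each of these libraries. In every library 10 of the 15 alpha genes lay within 2% of the lowest one. Of the 22 gamma genes, 18 or 19 lay within 2% of the lowest gamma gene. This common floor made up 93.8% to 95.7% of the alpha reads summed over rows and 95.8% to 96.4% of the gamma reads. The plot of levels by library shows it as a flat line under each of the 2 clusters, with none under the beta genes.

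**Figure D1:**
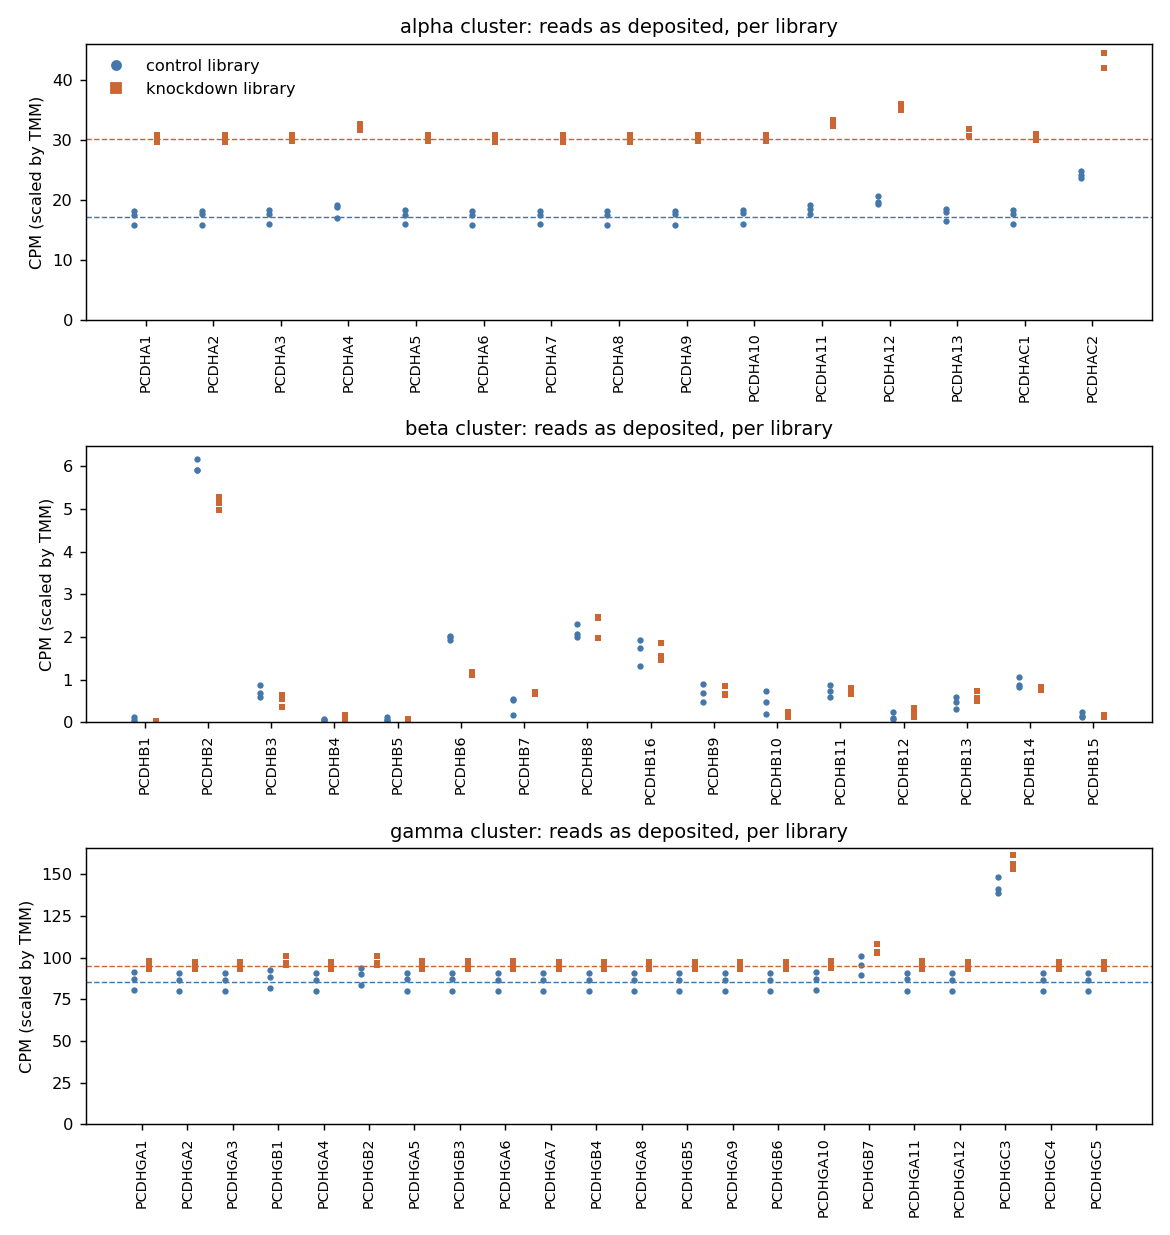
CPM of each clustered protocadherin (vertical axis, from 0) in chromosomal order, with 1 point per library, for the alpha, beta and gamma clusters. Dashed lines mark the group means of the lowest member, 17.1 and 30.1 CPM in alpha and 85.7 and 94.8 CPM in gamma. Most alpha and gamma genes sit on those lines, and PCDHAC2 and PCDHGC3 stand highest above them.

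The lowest count of a cluster in a library was therefore taken as the reads of its shared exons, and each member's own reads as its count beyond that floor. The floor is the most that shared reads can have added to each row, so own reads may be understated by the own reads of the lowest member. The floor of the alpha cluster held 18.1, 17.5 and 15.8 CPM in the controls and 29.6, 30.02 and 30.7 CPM in the knockdown libraries, a ratio of means of 1.76. Every knockdown library lay above every control.

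With each read counted once, alpha RNA held 30.6 ± 1.03 CPM in the controls and 55.6 ± 1.58 CPM in the knockdown (SD, n = 3 each), a ratio of 1.82. The shared part had 1.76 times and the own exons 1.90 times the control mean, so both parts of the alpha transcripts were higher. For gamma, counting each read once gave 161 ± 6.06 CPM in the controls and 176 ± 5.56 CPM in the knockdown (SD, n = 3 each), a ratio of 1.09. The gamma floor held 86.7, 80.0 and 90.6 CPM in the controls and 93.0, 97.5 and 94.0 CPM in the knockdown, without overlap. The gamma own reads summed to 75.5 ± 2.82 and 81.4 ± 3.71 CPM (SD, n = 3 each), and there the groups overlapped. The beta genes summed to 16.6 ± 0.873 and 14.9 ± 0.392 CPM (SD, n = 3 each), a ratio of 0.898, with every knockdown library below every control. Over all genes tested, the groups did not overlap in 71.3%. These sums over members carry no test, and the difference between the clusters was not tested.

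Among the alpha genes, 5 had enough own reads to be tested and all 5 were higher in the knockdown, where 33.1% of the 15165 genes in that fit were called higher and 34.1% lower. PCDHAC2, a C-type gene, was the main own-exon source of the cluster. It had 166, 136 and 198 own reads in the controls and 474, 394 and 410 in the knockdown, or 6.63, 6.55 and 7.75 CPM against 12.4, 14.5 and 13.6 CPM. Its log2 fold change on own reads was 0.95 (SE 0.0968, edgeR adjusted p = 6.45e-06).

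PCDHA12, the next in level, had 2.52, 2.17 and 3.52 CPM of own reads in the controls and 5.25, 5.44 and 5.25 CPM in the knockdown, a log2 fold change of 0.94 (SE 0.149, edgeR adjusted p = 0.000192). PCDHA11 had 1.12, 0.963 and 1.76 CPM in the controls and 2.71, 3.24 and 2.49 CPM in the knockdown (1.11 on the log2 scale, SE 0.205, edgeR adjusted p = 0.000618). In both genes control replicate 3 was the highest control and still lay below every knockdown library. Without it, PCDHA12 stood at 1.17 and PCDHA11 at 1.41 on the log2 scale.

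PCDHA4 had 27, 27 and 31 own reads in the controls and 75, 50 and 58 in the knockdown (log2 fold change 0.68, SE 0.154, edgeR adjusted p = 0.00228). PCDHA13 rested on the fewest reads of the 5, with 10, 8 and 15 in the controls and 38, 18 and 31 in the knockdown (0.97, SE 0.276, edgeR adjusted p = 0.00921; 1.20 without control replicate 3), and the DESeq2 test of own reads gave it an adjusted p of 0.0513. PCDHA12 and PCDHA13 lie next to each other, as do PCDHA11 and PCDHA12. The C-type gene PCDHAC1 was too low to test, with 4, 1 and 3 own reads in the controls and 12, 13 and 8 in the knockdown. The other 9 alpha genes, PCDHA1 to PCDHA3 and PCDHA5 to PCDHA10, had at most 6 own reads in any library. A change in them was not detectable at this depth. Of the 50-base stretches of PCDHA6 to PCDHA9, 24.3% to 33.2% recur in another protocadherin gene. How far this lowers their counts of uniquely aligned reads was not tested.

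The shares of the main alpha genes in the own reads of the cluster overlapped between the groups. PCDHAC2 held 52.3% ± 2.72 of them in the controls and 53.0% ± 1.60 in the knockdown (SD, n = 3 each), and PCDHA12 held 20.2% ± 2.19 and 20.9% ± 0.725. PCDHA4 held 9.06% ± 1.66 in the controls and 7.53% ± 0.632 in the knockdown, and PCDHA11 held 9.39% ± 1.67 and 11.1% ± 1.10. PCDHA13 held 3.38% ± 0.331 and 3.55% ± 0.939. The shares of PCDHA2 and PCDHA10, from 2 to 14 own reads per group, were lower in every knockdown library than in any control, and no share was tested. Per kilobase of own exon, PCDHAC2 stood at 2.25 CPM in the controls and 4.36 CPM in the knockdown, PCDHA12 at 1.16 and 2.25 CPM, PCDHA4 at 0.479 and 0.764 CPM, PCDHA11 at 0.394 and 0.867 CPM and PCDHA13 at 0.186 and 0.365 CPM. PCDHA4 and PCDHA12 carry GATGTCGCT in their window and PCDHA11 and PCDHAC2 do not, and no window was at hand for PCDHA13.

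**Figure D2:**
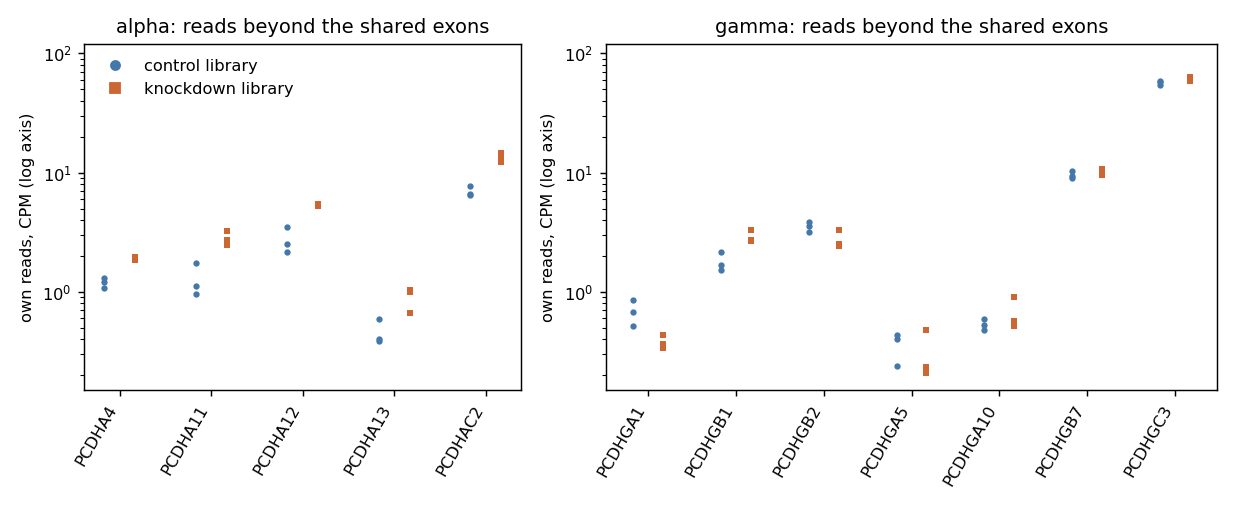
Own reads in CPM (log axis) of the 5 alpha and 7 gamma genes tested, with 1 point per library. All 5 alpha genes have every knockdown library above every control, while among the gamma genes PCDHGB1 and PCDHGC3 are higher, PCDHGA1 is lower and the other 4 overlap.

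Of the 22 gamma genes, 7 had enough own reads to be tested, and 1 was higher, 2 were lower and 4 did not pass. These shares are no larger than the 33.1% called higher and 34.1% called lower among all genes of that fit, and differences between gamma genes were not tested. PCDHGC3, a C-type gene, had by far the highest level, with 54.6, 58.6 and 58.04 CPM of own reads in the controls and 63.5, 64.0 and 59.1 CPM in the knockdown. Its groups did not overlap, but the knockdown replicate 3 value lay close to the highest control. It stood at 0.13 on the log2 scale (SE 0.0528, edgeR adjusted p = 0.0538), and without control replicate 3 it was 0.14 (adjusted p = 0.00781). The adjusted p was 0.183 without control replicate 1, 0.175 without knockdown replicate 1 and 0.172 without knockdown replicate 2. It was 0.0477 without control replicate 2 and 0.0418 without knockdown replicate 3, so the call depended on the library left out. PCDHGB7 had 9.02, 9.44 and 10.4 CPM of own reads in the controls and 9.89, 10.6 and 9.58 CPM in the knockdown, which overlapped (0.058, SE 0.0858, edgeR adjusted p = 0.568).

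PCDHGB1 rose. It had 38, 35 and 55 own reads in the controls and 104, 89 and 80 in the knockdown, or 1.52, 1.69 and 2.15 CPM against 2.71, 3.27 and 2.66 CPM (0.68 on the log2 scale, SE 0.162, edgeR adjusted p = 0.00338; 0.84 without control replicate 3). Its neighbour in subfamily PCDHGB2 had 3.55, 3.85 and 3.17 CPM in the controls and 2.43, 3.27 and 2.53 CPM in the knockdown (−0.37, SE 0.145, edgeR adjusted p = 0.0414). PCDHGB2 passed the test although knockdown replicate 2 lay above control replicate 3, and its DESeq2 adjusted p was 0.138.

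PCDHGA1, the first gamma gene, had 0.519, 0.674 and 0.862 CPM of own reads in the controls and 0.339, 0.368 and 0.432 CPM in the knockdown (−0.86, SE 0.284, edgeR adjusted p = 0.0199). This rests on 49 reads in all controls and 36 in all knockdown libraries, and without control replicate 3 the adjusted p was 0.106. With 13, 10 and 13 own reads, the knockdown libraries alone would not have passed the low-count filter. The gene thus entered the fit through its controls, where it was higher, and its DESeq2 adjusted p was 0.129. As deposited, PCDHGA1 and PCDHGB2 were among the genes called higher, so for both the direction turned when shared reads were taken off. PCDHGA10 (0.31, SE 0.286) and PCDHGA5 (−0.30, SE 0.408) did not pass.

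The other 15 gamma genes had from 0 to 12 own reads per library. They included the C-type genes PCDHGC4, with 4, 0 and 3 own reads in the controls and 4, 5 and 1 in the knockdown, and PCDHGC5, with 4, 1 and 5 against 6, 1 and 4. Of the gamma own reads, PCDHGC3 held 75.6% ± 0.776 in the controls and 76.5% ± 1.11 in the knockdown, and PCDHGB7 held 12.7% ± 0.608 and 12.3% ± 0.222 (SD, n = 3 each). The groups overlapped for both. Per kilobase of own exon, PCDHGC3 stood at 22.4 CPM in the controls and 24.5 CPM in the knockdown, and PCDHGB7 at 3.73 and 3.88 CPM. PCDHGB2 followed at 1.46 and 1.13 CPM and PCDHGB1 at 0.741 and 1.20 CPM. In the knockdown both genes lay close together, with 89 own reads each in knockdown replicate 2.

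**Figure D3:**
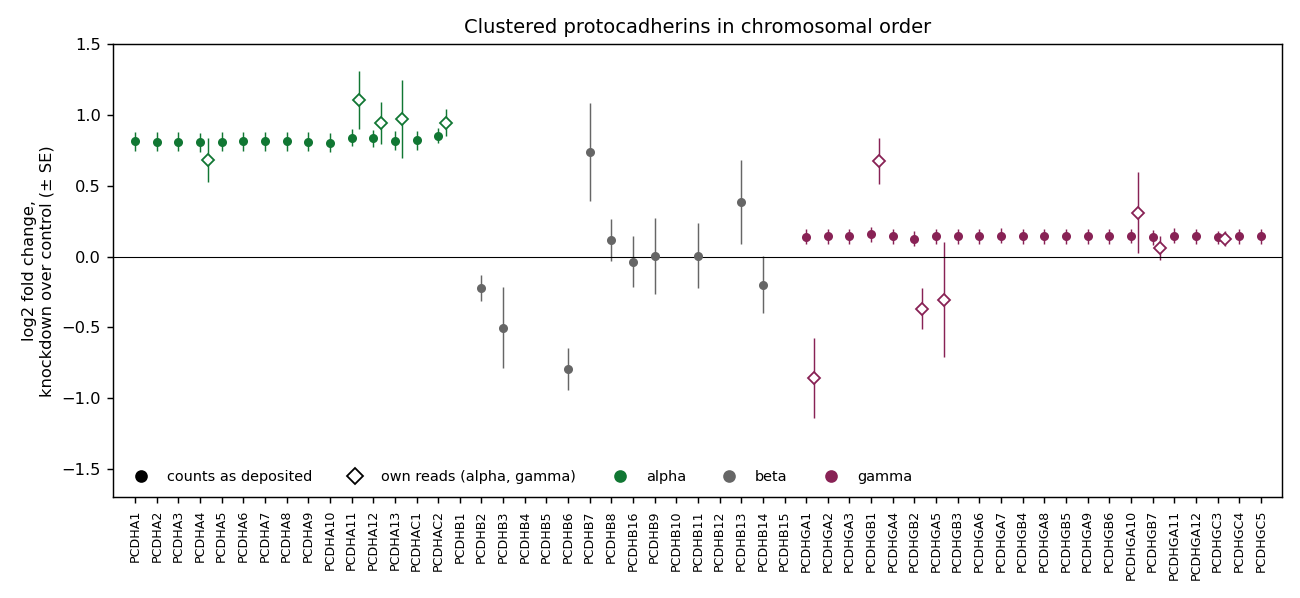
Log2 fold change, knockdown over control, with SE, of each clustered protocadherin tested, in chromosomal order; filled points use the counts as deposited and open diamonds the own reads of alpha and gamma genes. The filled points form a flat line near 0.81 for alpha and near 0.14 for gamma, while the diamonds spread from −0.86 to 1.11.

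The beta genes need no such correction, since they share no exon, and each is its own measurement. PCDHB6 fell, with 1.92, 2.02 and 2.00 CPM in the controls and 1.17, 1.10 and 1.13 CPM in the knockdown, from 141 and 109 reads in all (log2 fold change −0.79, SE 0.147, edgeR adjusted p = 0.000619). The 2 groups were far apart compared with the spread within them. PCDHB2, the beta gene of the highest deposited RPKM (reads scaled to gene length and library size; mean 1.95), had 5.91, 6.16 and 5.91 CPM in the controls and 5.14, 4.97 and 5.29 CPM in the knockdown (−0.22, SE 0.0888, edgeR adjusted p = 0.0451). Its groups did not overlap, but the call was lost under each of the 10 alternatives run for it (adjusted p 0.0568 to 1.0).

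Of the 8 beta genes that did not pass, PCDHB7 was the only one whose groups did not overlap. It had 0.160, 0.530 and 0.548 CPM in the controls and 0.652, 0.699 and 0.698 CPM in the knockdown (0.74, SE 0.347, edgeR adjusted p = 0.0815), from 4, 11 and 14 reads and 25, 19 and 21 reads. Without control replicate 1, the library with 4 reads, its log2 fold change was 0.34 (edgeR adjusted p = 0.377). Without control replicate 3 it was 1.04 (edgeR adjusted p = 0.0215). The controls of PCDHB7 alone would not have passed the low-count filter. The gene thus entered the fit through the knockdown libraries, where it was higher. PCDHB8, second in deposited RPKM at 0.795, had 2.08, 2.31 and 2.00 CPM in the controls and 2.45, 2.46 and 1.96 CPM in the knockdown, which overlapped (0.12, SE 0.146).

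PCDHB3 had 0.878, 0.674 and 0.587 CPM in the controls and 0.365, 0.552 and 0.632 CPM in the knockdown (−0.50, SE 0.286). PCDHB13 had 0.319, 0.578 and 0.470 CPM against 0.496, 0.736 and 0.565 CPM (0.38, SE 0.298), and PCDHB14 had 0.878, 1.06 and 0.822 CPM against 0.835, 0.773 and 0.765 CPM (−0.20, SE 0.201). All 3 overlapped between groups. The knockdown libraries of PCDHB3 alone would not have passed the low-count filter, nor would the controls of PCDHB13 alone. Each thus entered the fit through the group where its mean was higher. PCDHB16 (−0.035, SE 0.183), PCDHB9 (0.0055, SE 0.267) and PCDHB11 (0.0069, SE 0.227) lay near 0 with wide errors. PCDHB1, PCDHB4, PCDHB5, PCDHB10, PCDHB12 and PCDHB15 were below the filter, with 2 to 32 reads per group, of which PCDHB10 had 32 in the controls and 17 in the knockdown. Many beta genes share stretches of sequence. Of the 50-base stretches of PCDHB8, 45.8% recur in another protocadherin gene, most often PCDHB13, against 14.7% for PCDHB6 and 20.3% for PCDHB2. Own exons of alpha and gamma genes do so too, with 33.2% in PCDHA6 and 23.6% in PCDHGB4. Among those tested on own reads, the share was 9.92% in PCDHA12, 12.4% in PCDHGB1 and 0 in PCDHAC2 and PCDHGC3. A read lying wholly within such a stretch has no unique place, and how far this lowers the counts was not tested. GGTGGCGCT was present in PCDHB2, PCDHB3 and PCDHB7, whose log2 fold changes were −0.22, −0.50 and 0.74, and no window was at hand for PCDHB6. PCDHB3 and PCDHB7 had each entered the fit through the group where they were higher, so no conclusion is drawn from these values.

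Of 28 genes listed as regulators of this locus, or of cohesin and DNA methylation more widely, all were tested, and 9 were higher and 7 lower (median 0.044). The 7 include KMT5C, which is the siRNA target, so its fall is no finding about regulators. Over all genes 33.1% were called higher and 34.2% lower, so neither count exceeds the background share. CTCF, the looping factor that binds many of these promoters, stood at −0.10 (SE 0.0456, edgeR adjusted p = 0.0699), the cohesin subunit RAD21 at 0.00024 (SE 0.0520) and SMCHD1, a chromatin protein known to act on this locus, at −0.022 (SE 0.0690). The rises of smallest p were ZNF274, a zinc finger protein that recruits histone H3 methylation (1.56, SE 0.0699), the DNA methyltransferase DNMT3B (1.34, SE 0.0718) and the DNA demethylase TET3 (0.52, SE 0.0490). The maintenance methyltransferase DNMT1 (−0.51, SE 0.0419) and the cohesin subunit STAG1 (−0.42, SE 0.0556) were lower. These levels moved beside the alpha genes, and their part in that rise was not tested.

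Of 20 genes for partners and processing of these proteins, 19 were tested, with 8 higher and 6 lower (median 0.092), against 33.1% and 34.2% of all genes. Lower were the receptor kinase RET, a known partner of clustered protocadherins (−1.57, SE 0.0948), NCKAP1 of the WAVE complex, which drives actin branching (−0.71, SE 0.0477), and the focal adhesion kinase gene PTK2 (−0.53, SE 0.0421). Higher were ABI2 (0.65, SE 0.0471) and WASF2 (0.33, SE 0.0407) of the WAVE complex.

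Of the 28 neighbours tested, which lie inside the locus or among the 15 nearest protein-coding genes on either side, 11 were higher and 7 lower (median 0.061), against 33.1% and 34.2% of all genes. ZMAT2, the nearest gene before the alpha cluster, stood at −0.072 (SE 0.0476). TAF7, a subunit of the general transcription factor TFIID that lies between the beta and gamma clusters, was lower at −0.29 (SE 0.0574), and SLC25A2 beside it had 1 read in all. DIAPH1, an actin-nucleating formin and the nearest gene after the gamma cluster, was higher at 0.45 (SE 0.0424). By p, the other leading rises were SPRY4, an inhibitor of growth factor signalling (0.70, SE 0.0478), and CD14, a coreceptor for lipopolysaccharide (1.75, SE 0.200). The leading falls were ARAP3 (−1.36, SE 0.0893) and ARHGAP26 (−0.57, SE 0.0460), both regulators of small GTPases, and TMCO6 (−0.66, SE 0.0925).

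**Figure D4:**
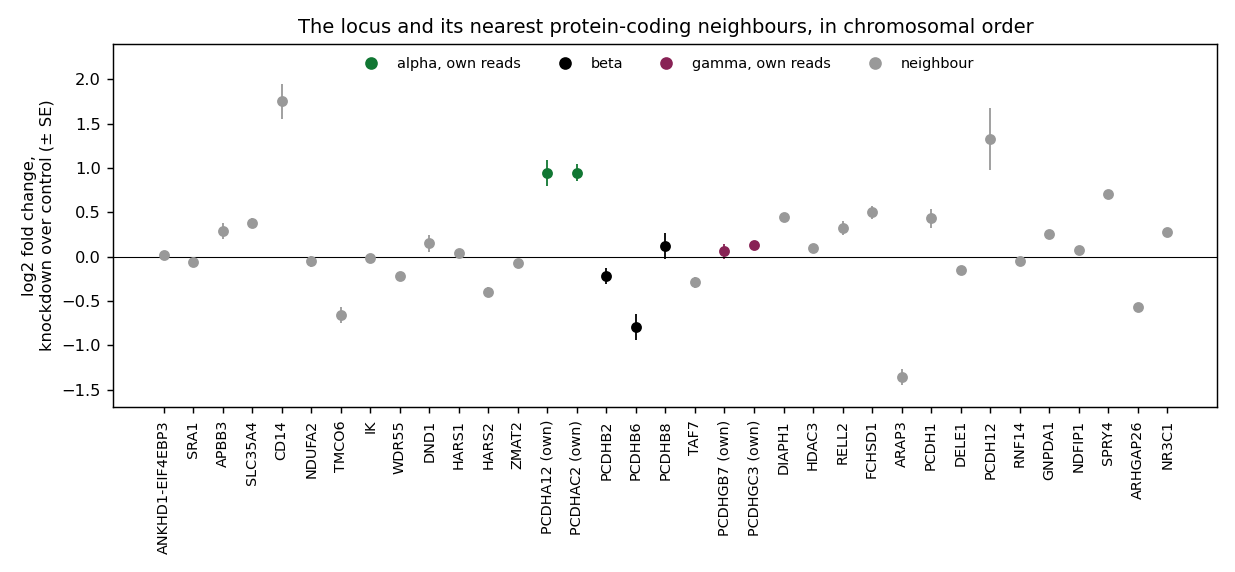
Log2 fold change, knockdown over control, with SE, of the protein-coding neighbours tested (grey) and of 7 clustered protocadherins (alpha and gamma on own reads), in chromosomal order. PCDHA12 and PCDHAC2 lie near 0.94 between ZMAT2 at −0.072 and the beta genes, and neighbours on both sides lie above and below 0.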

How the data were processed

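Polyadenylated RNA of 3 SUV420H2 knockdown and 3 control libraries of PANC-1 cells was compared, with groups taken from the siRNA label. Reads were aligned with GSNAP to GRCh38, per the submitters' processing notes. Each file holds, per the file headers, the count of reads aligned uniquely to each gene model and an RPKM after the authors' size-factor adjustment. The sources used here do not state strand setting or annotation release. The deposited counts were tested and the deposited RPKM served only to rank levels. The deposited counts of the alpha genes, and those of the gamma genes, have a common floor in each library, which was read here as reads of shared exons entered in every row. Symbols and coordinates came from RefSeq (GRCh38.p14; 27814 of 30727 gene IDs matched), and exons from GENCODE 29.

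The 2-sided quasi-likelihood test of edgeR 4.0.16 (R 4.3.3) was fitted over all genes after filterByExpr (minimum count 10, minimum total 15) and TMM scaling, with Benjamini-Hochberg adjustment. SE refers to the log2 fold change. Own reads were tested in a second fit with the lowest member's count of each cluster and library subtracted. Controls held 20863594 to 25931995 reads and knockdown libraries 27007534 to 38022772. At a few reads per library a gene cannot be compared.

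Members, gene lists and alternatives were chosen with earlier results of these data known. Values by library are given for the 6 beta, 3 alpha and 3 gamma genes of smallest p, the 2 members of each cluster with the highest RPKM, the C-type genes and members called lower, and for lists the 3 genes of smallest p in each direction. Some genes that this rule names are not reported here and were not replaced. CTCF, RAD21, SMCHD1, ZMAT2, and the further members with own reads were named after their values were seen. Alternatives were DESeq2 1.42.0 size factors and Wald test, no low-count filter, glmTreat against 1.5-fold, leaving out each library, and shared reads subtracted.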

Additional observations from a re-analysis of the deposited data

How the results depend on the processing

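With the shared reads subtracted, alpha genes called higher went from 15 to 5, gamma genes called higher from 22 to 1 and gamma genes called lower from 0 to 2, since 5 alpha and 7 gamma genes had enough own reads to be tested. The medians became 0.95 for alpha and 0.058 for gamma, and PCDHGA1 (−0.86), PCDHGB2 (−0.37) and PCDHGA5 (−0.30) changed sign. Leaving out 1 library moved the gamma genes called higher between 0 and 22: they were 4 without control replicate 1, 0 without control replicate 2, 22 without control replicate 3, 1 without knockdown replicate 1, 0 without knockdown replicate 2 and 1 without knockdown replicate 3, while from 59.9% to 73.1% of all genes were called in either direction. The 15 alpha calls and the 5 alpha calls on own reads were kept in number whichever library was left out. Beta genes called lower were 1 to 2 and those called higher 0 to 1 when a library was left out, and the beta median ran from −0.18 to 0.083. Beta genes called lower were 1 with DESeq2 size factors and 1 with the DESeq2 test, and the beta median was −0.12 with no low-count filter; the cause was not tested.

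The own-read fits under other settings were added after seeing the data. Alpha genes called higher on own reads were 6 with no low-count filter and 4 with the DESeq2 test. Gamma calls on own reads were 2 higher with DESeq2 size factors, 0 lower with the DESeq2 test, and 1 to 2 higher and 0 to 2 lower when a library was left out. Against a 1.5-fold change (glmTreat, which called 19.7% of genes) no beta gene was lower (0) and no gamma gene higher (0), and own reads gave 3 alpha genes higher, 0 gamma genes higher and 0 lower. The same test gave 2 higher and 0 lower among the regulators, 4 and 1 among the other large cadherins, 0 and 2 among the partners, and 2 and 1 among the neighbours. No paired analysis was possible because the labels give no replicate numbers; the numbers used here follow accession order and only name the libraries. Depth limits the 10 alpha and 15 gamma genes left untested on own reads and the 6 beta genes below the filter. Sequence shared between members may limit them too, which was not tested.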

Other observations

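Of 21 large cadherin genes outside the clusters 12 were tested, with 8 higher and 3 lower (median log2 fold change 0.51, edgeR), where 33.1% of all genes were called higher and 34.2% lower. The list as a group was not tested. CELSR3, a planar polarity receptor, rose from 12.1 ± 1.26 to 25.3 ± 1.56 CPM (SD, n = 3 each; 1.06, SE 0.0852). DCHS1, a ligand of FAT cadherins, rose by 1.02 (SE 0.0925) and PCDH7, a non-clustered protocadherin, by 0.59 (SE 0.0529) on the log2 scale. PCDH18 fell from 16.4 ± 1.01 to 4.98 ± 0.313 CPM (SD, n = 3 each; −1.71, SE 0.0871), and the giant cadherins FAT4 (−0.62, SE 0.0598) and FAT1 (−0.26, SE 0.0581) were lower too. PCDH1 (0.43, SE 0.109) and PCDH12 (1.33, SE 0.353, from 15 and 51 reads in all), which lie after the gamma cluster on the same chromosome, were also higher. PCDH12 passed the low-count filter only through the knockdown libraries, where it was high.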
